A study of Mus musculus with 10 samples.

Results

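The genes described here are 6 transcription factor genes that mark the naive state of T cells: Tcf7, Lef1, Satb1, Bach2, Foxp1 and Ets1. They were chosen by name from 45321 annotated genes, and all 6 were among the 14417 genes with enough counts to be tested. Total RNA was sequenced with a SMART-seq kit from naive CD4 T cells, helper cells before their first contact with antigen, which were sorted by surface markers from C57BL/6 spleens. The cells were treated for 1 h with 12.5 µM Compound 10, described in the series as a small molecule that inhibits NFAT:AP-1, or with its solvent DMSO (vehicle). They were then either stimulated with PMA (10 nM) plus ionomycin (1 µM) over 2 h or left unstimulated. PMA turns on protein kinase C, ionomycin lets calcium into the cell, and the mixture so acts downstream of the T cell receptor. The groups were Compound 10 stimulated (n = 3), vehicle stimulated (n = 2), Compound 10 unstimulated (n = 2) and vehicle unstimulated (n = 3). Separate animals or cultures behind the libraries of a group are not named in the labels, so p-values cover the spread between these libraries, which may be technical.

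Each of the 6 genes encodes a DNA-binding protein. Tcf7 (TCF-1) and Lef1 are closely related high mobility group proteins that bind the same DNA motif, recruit beta-catenin or TLE corepressors, and are used throughout T cell development and in naive and memory cells. Satb1 is a chromatin organiser that binds AT-rich DNA and is abundant in the thymus and in naive T cells. Bach2 is a repressor that pairs with small Maf proteins, binds sites that AP-1 proteins also bind, and holds back effector genes. Foxp1 is a forkhead repressor needed for T cell quiescence, and Ets1 is the founding member of the ETS family, which works with NFAT, AP-1 and Runx proteins at many T cell genes. NFAT is the calcium-regulated factor that ionomycin activates, and AP-1 (Fos and Jun proteins) is induced by PMA.

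Estimated counts summed to between 10694591 and 33486259 per library. The deepest 2 libraries were vehicle unstimulated replicate 3 and Compound 10 unstimulated replicate 2. Pairs of replicates that hold them had a chi-square per degree of freedom of 75.0 to 107, against 13.3 to 40.8 for the other pairs. This value was computed on counts and grows with depth. It therefore does not show that these libraries stand farther from their replicates. The 14 genes of the T cell identity list (Cd3d, Cd4, Lck and others) summed to between 4859 and 5522 CPM in Compound 10 stimulated, 5907 and 6362 CPM in vehicle stimulated, 3627 and 3887 CPM in Compound 10 unstimulated, and 2815 and 2931 CPM in vehicle unstimulated libraries. CPM are counts scaled to library size with TMM factors. B cell markers summed to at most 10.1 CPM, CD8 T cell markers to 10.5 CPM in both vehicle stimulated and at most 7.23 CPM in the other libraries, NK cell markers to at most 1.26 CPM and erythroid markers to at most 0.503 CPM. Markers of memory or effector T cells (Cd44, Itgb1, Il2rb and others, 10 genes, of which S100a4 and Gzmk were at 0 in most groups) summed to between 127 and 144 CPM in Compound 10 stimulated, 232 and 238 CPM in vehicle stimulated, 105 and 113 CPM in Compound 10 unstimulated and 49.1 and 66.6 CPM in vehicle unstimulated libraries. In the same order of groups, Il2rb averaged 60.4, 162, 41.6 and 12.4 CPM and Itgb1 26.4, 28.9, 39.4 and 34.9 CPM. Markers of regulatory T cells (5 genes, none at 0 throughout a group) summed to between 21.95 and 26.4 CPM in Compound 10 stimulated, 22.97 and 27.03 CPM in vehicle stimulated, 21.7 and 23.8 CPM in Compound 10 unstimulated and 12.5 and 15.4 CPM in vehicle unstimulated libraries. In that order Gpr83 averaged 14.1, 11.5, 4.09 and 1.98 CPM, whereas Foxp3 averaged 3.31, 5.83, 3.80 and 3.71 CPM. Ikzf2, Nrp1 and Itgae had their highest means in Compound 10 unstimulated cells. Myeloid markers (9 genes) summed to at most 10.3 CPM in the other groups and to between 13.96 and 25.9 CPM in vehicle unstimulated libraries, most of it from Cd68 (mean of 19.2 CPM there), with Fcer1g at 0 in Compound 10 stimulated, Itgam in vehicle stimulated, and Lyz2 and Adgre1 in Compound 10 unstimulated libraries. The T cell identity, CD8, memory or effector, regulatory and myeloid sums moved with the groups, and their part in the results was not tested. In bulk RNA, fewer cells of a type and less RNA per cell cannot be told apart.

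Promoter sequences of 5 of the 6 genes, taken from RefSeq (GRCm38.p6), are shown, 1 for each start site on which the results turn where the table holds one. Each is the 250 bases before the RefSeq start, read 5′ to 3′ on the strand of the gene, and capitals mark matches to the NFAT core GGAAA, or its reverse complement. The windows are chr11:52282596-52282845 (Tcf7, minus strand), chr3:131110073-131110322 and chr3:131112541-131112790 (Lef1, plus strand), chr17:51826589-51826838 (Satb1, minus strand), chr4:32417185-32417434 (Bach2, plus strand) and chr6:99028299-99028548 (Foxp1, minus strand). The upstream Lef1 window ends before the RefSeq start at 131110323, whereas the upstream Lef1 site measured here starts at 131110471. No window is shown for the site of Foxp1-228.
Tcf7: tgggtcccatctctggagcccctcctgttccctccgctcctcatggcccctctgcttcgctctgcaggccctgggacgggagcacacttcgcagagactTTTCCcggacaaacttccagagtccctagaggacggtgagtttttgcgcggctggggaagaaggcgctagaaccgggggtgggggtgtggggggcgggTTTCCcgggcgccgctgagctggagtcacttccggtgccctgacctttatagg
Lef1 upstream: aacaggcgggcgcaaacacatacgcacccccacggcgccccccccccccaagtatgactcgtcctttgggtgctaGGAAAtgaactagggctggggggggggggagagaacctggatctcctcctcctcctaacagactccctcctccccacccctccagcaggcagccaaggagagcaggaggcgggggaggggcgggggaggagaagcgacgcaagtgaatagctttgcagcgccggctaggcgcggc
Lef1 downstream: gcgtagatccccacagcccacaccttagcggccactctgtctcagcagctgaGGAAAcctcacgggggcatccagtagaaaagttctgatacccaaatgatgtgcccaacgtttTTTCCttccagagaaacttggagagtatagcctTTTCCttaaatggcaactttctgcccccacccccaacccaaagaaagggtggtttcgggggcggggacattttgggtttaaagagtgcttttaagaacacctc
Satb1: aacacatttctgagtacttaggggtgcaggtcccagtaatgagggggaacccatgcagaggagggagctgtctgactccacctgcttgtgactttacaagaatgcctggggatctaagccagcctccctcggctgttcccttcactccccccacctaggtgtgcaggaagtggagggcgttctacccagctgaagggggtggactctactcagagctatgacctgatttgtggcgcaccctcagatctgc
Bach2: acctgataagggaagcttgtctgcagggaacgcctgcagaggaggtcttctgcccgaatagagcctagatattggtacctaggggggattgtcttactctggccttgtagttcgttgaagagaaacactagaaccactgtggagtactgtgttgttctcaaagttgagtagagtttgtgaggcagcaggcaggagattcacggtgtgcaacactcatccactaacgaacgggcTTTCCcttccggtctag
Foxp1: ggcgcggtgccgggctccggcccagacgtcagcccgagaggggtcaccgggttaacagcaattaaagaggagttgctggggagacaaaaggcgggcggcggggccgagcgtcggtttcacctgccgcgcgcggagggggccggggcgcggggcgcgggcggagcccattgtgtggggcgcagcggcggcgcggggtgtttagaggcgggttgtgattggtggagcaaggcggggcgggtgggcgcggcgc
The NFAT core occurred 2 times in the Tcf7 window, 1 time in the upstream and 3 times in the downstream Lef1 window and 1 time in the Bach2 window, and not in the Satb1 and Foxp1 windows. Over all 15 RefSeq windows of these genes, 10 held it, against 55.6% of 32817 windows of the same length before RefSeq starts of mouse genes. Some of the 15 windows, of Lef1 and of Satb1, overlap and share a match. The AP-1 motif TGANTCA was in none of the 15 windows, against 6.75% of all windows. The ETS motif CCGGAAGT was in 1 window, that of Tcf7 shown above, against 2.88% of all windows. CTTTGAT (TCF/LEF) and GTAAACA (forkhead) were in none of the 15, against 3.21% and 3.16% of all windows. All motifs were searched on both strands, and no ETS match overlaps an NFAT core. A match describes letters only, and no match says only that these letters are not in this window.

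All 6 genes were expressed in every library, and Foxp1 ranked highest and Bach2 lowest per length in every group. In TPM, which corrects for transcript length, Compound 10 stimulated cells held 250.5 ± 22.8 of Foxp1, 208 ± 18.9 of Satb1, 165 ± 5.86 of Lef1, 154 ± 11.5 of Ets1, 93.5 ± 4.84 of Tcf7 and 39.3 ± 7 of Bach2 (mean ± SD, n = 3). Vehicle stimulated cells held 183 ± 3.78, 175 ± 12.97, 145 ± 6.01, 128 ± 23.6, 57.7 ± 9.82 and 34.3 ± 5.04 TPM of these genes, named in that order (n = 2). In both stimulated groups the libraries of Foxp1 and Satb1 overlapped, as did those of Lef1 and Ets1, whereas Tcf7 and Bach2 each stood below the genes before them without overlap.

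Unstimulated cells had another order. In Compound 10 unstimulated cells it was Foxp1 (440.1 ± 67.5 TPM), Ets1 (379 ± 14.8), Lef1 (315 ± 16.3), Satb1 (282 ± 46.9), Tcf7 (182 ± 17.6) and Bach2 (50.03 ± 3.79, n = 2), where Lef1 and Satb1 overlapped. In vehicle unstimulated cells it was Foxp1 (325 ± 46.9 TPM), Ets1 (288 ± 41.8), Lef1 (258 ± 24.5), Tcf7 (175 ± 24.5), Satb1 (146 ± 38.8) and Bach2 (61.2 ± 11.5, n = 3). There, Foxp1 overlapped Ets1 and Ets1 overlapped Lef1, Tcf7 overlapped Satb1, and Bach2 stood apart. Satb1 took the fifth place in vehicle unstimulated cells, the fourth in Compound 10 unstimulated cells and the second in stimulated cells, while Ets1 took the second place in unstimulated and the fourth in stimulated cells. TPM of Foxp1 depends on short annotated transcripts: Foxp1-218, of 607 bases, held 15.8% to 37.7% of its TPM.

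**Figure D1:**
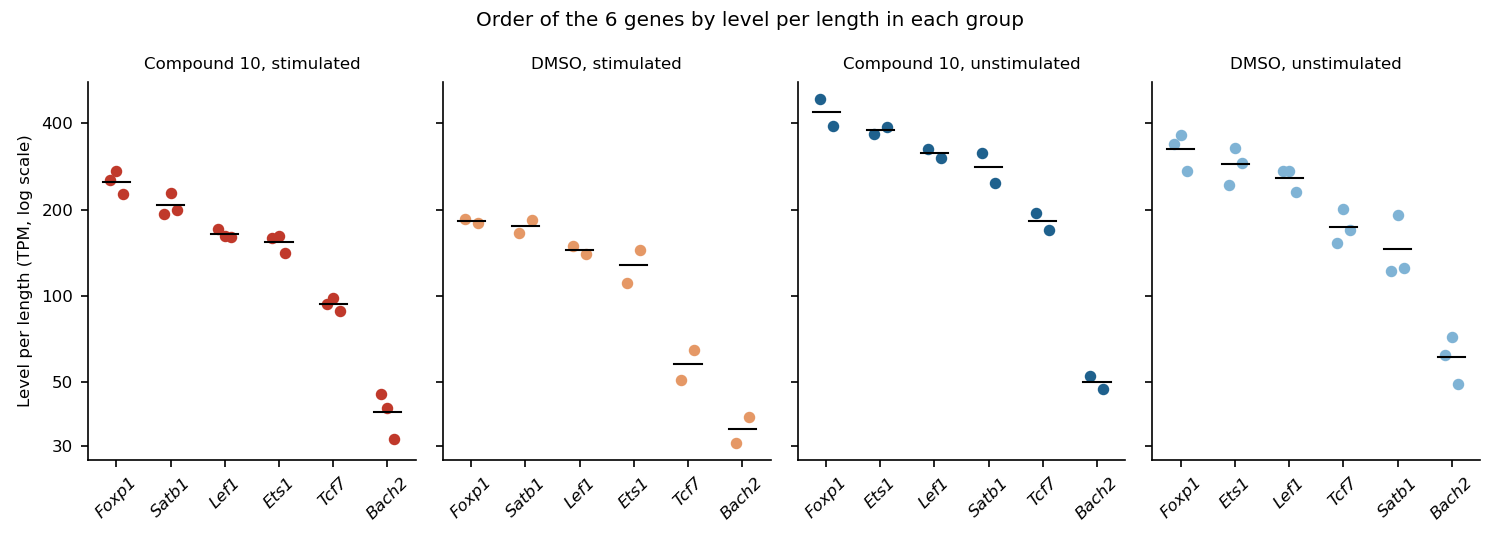
Level per length (TPM, log scale) of the 6 genes in each group, ordered from highest to lowest mean; points are libraries and black lines group means. Foxp1 is first and Bach2 last in all 4 groups, and Satb1 takes the second place in stimulated cells, the fourth in Compound 10 unstimulated and the fifth in vehicle unstimulated cells.

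The design gives 4 comparisons. Stimulation for 2 h under vehicle changed 2 of the 6 genes, with Satb1 higher and Tcf7 lower, where 39% of all tested genes passed, 19.5% higher and 19.4% lower (adjusted p under 0.05 in the quasi-likelihood test of edgeR, with the Benjamini-Hochberg adjustment over 14417 genes). With Compound 10 present, stimulation changed Lef1 and Ets1, both lower, where 26.5% of all genes passed and 13.7% were lower. In stimulated cells Compound 10 changed 1 of the 6, Tcf7, which was higher than under vehicle, where 23.2% passed and 10.4% were higher. In unstimulated cells it raised Satb1 and Lef1, where 8.43% passed and 4.65% were higher. In the stimulation comparisons and in stimulated cells, 2, 2 and 1 of 6 genes is no larger a share than, or close to, that background. The 2 of 6 in unstimulated cells stand against the smallest background share of the 4.

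The log2 fold changes of the 6 genes had a median of -0.16 for stimulation under vehicle, -0.31 for stimulation with Compound 10, 0.21 for Compound 10 in stimulated cells and 0.47 for Compound 10 in unstimulated cells. Over all tested genes the medians were -0.06, -0.01, 0.04 and 0.00. Under Compound 10 the estimates of 5 of the 6 genes were above 0 in each state, and only that of Bach2 was below 0 (with counts rebuilt from TPM it was 0.13 in stimulated cells). The libraries of the 2 groups did not overlap for 4, 5, 5 and 6 of the 6 genes in the 4 comparisons, where 62.6%, 50.4%, 54.7% and 37.9% of all genes did not overlap. The comparisons share groups, so their values are not independent. Directions are relative to the TMM scaling, which sets the typical gene near 0. With library totals alone the median of all genes moved to -0.83 for stimulation under vehicle and -0.60 with Compound 10. In the comparison of treatments in stimulated cells it moved to 0.15, and to 0.18 with upper-quartile scaling. With library totals alone, all estimates for stimulation were below 0 except that of Satb1 under vehicle (0.08).

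**Figure D2:**
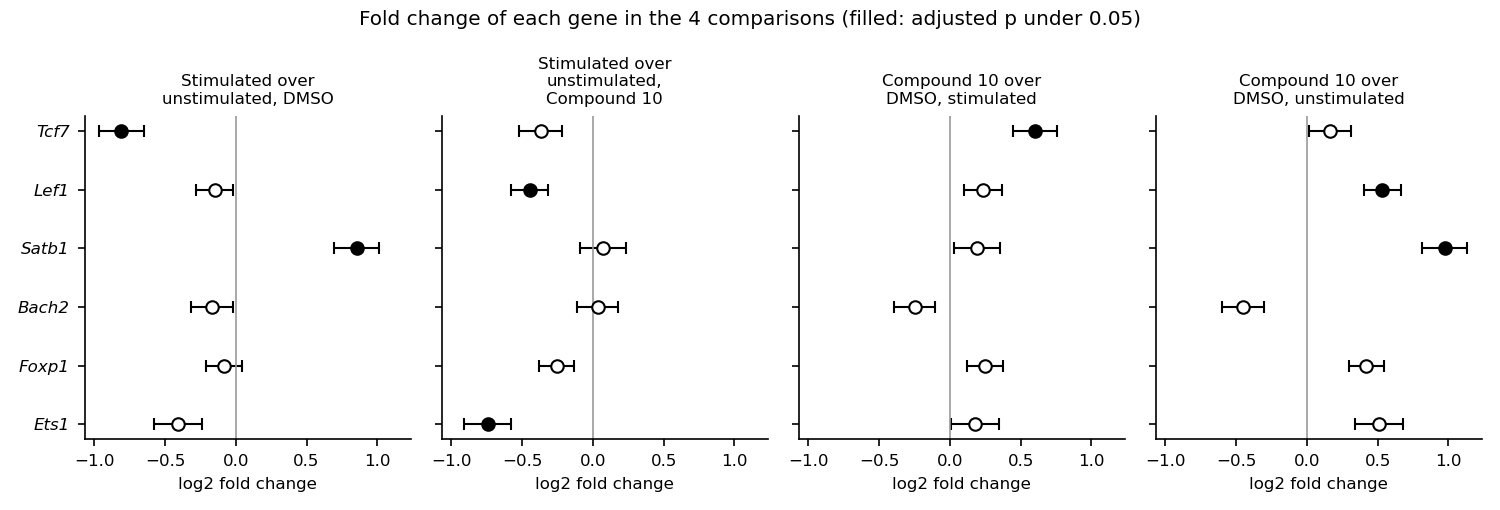
Log2 fold change (horizontal axis) of each gene in the 4 comparisons, with bars for 1 SE; filled points passed an adjusted p of 0.05 and open points did not. Satb1 lies at 0.86 for stimulation under vehicle and at 0.97 for Compound 10 in unstimulated cells, and Tcf7 at -0.81 and 0.60 in the panels for stimulation under vehicle and for Compound 10 in stimulated cells.

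Tcf7 (ENSMUSG00000000782, chromosome 11, 52252371 to 52283014, minus strand, mm10) had 207, 198 and 198 CPM in Compound 10 stimulated libraries, against 119 and 146 CPM in vehicle stimulated libraries. It had 264 and 256 CPM in Compound 10 unstimulated and 199, 250.2 and 248 CPM in vehicle unstimulated libraries. The 2 vehicle stimulated libraries were the lowest of all 10, and the Compound 10 stimulated libraries lay above them and below 4 of the 5 unstimulated libraries. Differences between groups are log2 fold changes from edgeR, given with their standard error. Stimulation under vehicle lowered Tcf7 (-0.81 ± 0.16 SE, adjusted p = 0.00172). With Compound 10 the estimate for stimulation was -0.37 ± 0.15 (SE, adjusted p = 0.0962), which did not pass. In stimulated cells Tcf7 was higher with Compound 10 than with vehicle, by 0.60 ± 0.16 (SE, adjusted p = 0.0161), and in unstimulated cells the difference of 0.16 ± 0.15 (SE, adjusted p = 0.568) did not pass. The index numbers that the libraries carry fall into 3 runs, whose meaning the labels do not give, and within the 2 runs that hold both groups, 1 library of each, Tcf7 differed by -0.73 and -0.78 for stimulation under vehicle and by 0.80 and 0.44 for Compound 10 in stimulated cells. The difference in stimulated cells did not pass without vehicle stimulated replicate 1 (0.46, adjusted p = 0.192). The test of whether the effect of Compound 10 differed between states gave 0.44 ± 0.22 (SE, adjusted p = 0.270), which did not pass.

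The annotation holds 2 Tcf7 transcripts. Tcf7-201 (2471 bases, start at 52282571, 909 coding bases) took 88.4% to 95.6% of the Tcf7 TPM in each library, with no separation between groups. It had 191, 189 and 186 CPM in Compound 10 stimulated and 105 and 136 CPM in vehicle stimulated libraries. It had 256 and 247 CPM in Compound 10 unstimulated and 196, 247 and 246 CPM in vehicle unstimulated libraries. Tested among 37354 transcripts, it was lower with stimulation under vehicle (-0.93 ± 0.16 SE, adjusted p = 0.00631), where 15.1% of transcripts passed. The difference with Compound 10 in stimulated cells, 0.65 ± 0.16 (SE, adjusted p = 0.0563), did not pass at this level. Tcf7-202, which starts at 52283014, was lower with stimulation under vehicle as well (-1.58 ± 0.42 SE, adjusted p = 0.0392).

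Lef1 (ENSMUSG00000027985, chromosome 3, 131110471 to 131224356, plus strand) is the closest relative of Tcf7 in this set. It had 389, 349 and 369 CPM in Compound 10 stimulated and 327 and 300.5 CPM in vehicle stimulated libraries. Unstimulated libraries held 468 and 538 CPM with Compound 10 and 361, 339 and 343 CPM with vehicle. The 2 Compound 10 unstimulated libraries were the highest of all, and no pair of compared groups overlapped. Compound 10 raised Lef1 in unstimulated cells (0.53 ± 0.13 SE, adjusted p = 0.0319), and stimulation with Compound 10 lowered it (-0.45 ± 0.13 SE, adjusted p = 0.0267). The estimates for stimulation under vehicle (-0.15 ± 0.13 SE, adjusted p = 0.408) and for Compound 10 in stimulated cells (0.24 ± 0.13 SE, adjusted p = 0.238) did not pass. Within index runs, Lef1 differed by 0.46 and 0.65 for Compound 10 in unstimulated cells and by -0.42 and -0.54 for stimulation with Compound 10. Both calls were lost without some single libraries: without any 1 of vehicle unstimulated replicates 1 and 2, Compound 10 unstimulated replicates 1 and 2 and vehicle stimulated replicates 1 and 2 for the compound (adjusted p = 0.0569 to 0.221), and without Compound 10 unstimulated replicate 2 or Compound 10 stimulated replicates 2 or 3 for stimulation (adjusted p = 0.0531 to 0.181). The call for the compound was also lost with counts rebuilt from TPM, with no filter on low counts and when only the 2 groups were fitted (adjusted p = 0.115, 0.0634 and 0.119), and that for stimulation with upper-quartile scaling (adjusted p = 0.0624). Without the third index run, which holds the deepest 2 libraries and Compound 10 stimulated replicate 3, neither passed (adjusted p = 0.0949 and 0.0768).

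Lef1 was also measured by start site. Lef1-201 (3482 bases, 12 exons, start at 131110471) has 1191 coding bases, and its first exon of 1208 bases holds the first 207 of them. Lef1-203 (2298 bases, 12 exons, start at 131112797, inside the first intron of Lef1-201) has 993 coding bases, of which 9 lie in a first exon of 24 bases. In human cells a promoter inside LEF1 is known to give a shorter protein without the beta-catenin-binding end. Transcripts were summed over start sites within 100 bases, a summary chosen after the data were seen, which gave 25972 tested sites.

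The upstream Lef1 site had 188, 168 and 169 CPM in Compound 10 stimulated and 90.8 and 96.9 CPM in vehicle stimulated libraries. It had 245 and 312 CPM in Compound 10 unstimulated and 136, 132 and 152 CPM in vehicle unstimulated libraries. In each state every Compound 10 library was above every vehicle library, and with each treatment every stimulated library was below every unstimulated one. Compound 10 raised the site in stimulated cells (0.94 ± 0.16 SE, adjusted p = 0.00753) and in unstimulated cells by 0.98 ± 0.15 (SE, adjusted p = 0.0262), where 10.3% and 1.41% of all sites passed. Stimulation lowered it (-0.67 ± 0.16 SE, adjusted p = 0.0139) under vehicle and by -0.71 ± 0.15 (SE, adjusted p = 0.0155) with Compound 10, where 23% and 13% of sites passed. The fall under vehicle did not pass without either vehicle stimulated library (adjusted p = 0.118 and 0.0616), and that with Compound 10 did not pass without replicate 2 of Compound 10 unstimulated or of Compound 10 stimulated cells (adjusted p = 0.135 and 0.0551). The rise with Compound 10 did not pass without either vehicle stimulated library in stimulated cells (adjusted p = 0.0858 and 0.0539). In unstimulated cells it did not pass in 7 of 10 fits that left out 1 library, where the estimate ranged from 0.75 to 1.13 and adjusted p from 0.0319 to 0.181.

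The downstream Lef1 site had 182, 172 and 188 CPM in Compound 10 stimulated and 214 and 189 CPM in vehicle stimulated libraries. It had 203 and 218 CPM in Compound 10 unstimulated and 211, 190.2 and 172 CPM in vehicle unstimulated libraries. No comparison of this site passed, with estimates of -0.11 (adjusted p = 0.665) for Compound 10 in stimulated cells, 0.13 (adjusted p = 0.754) in unstimulated cells, -0.02 (adjusted p = 0.945) for stimulation under vehicle and -0.26 (adjusted p = 0.237) with Compound 10. As a share of the Lef1 TPM, the upstream site took 33.6, 35.1 and 31.7% in Compound 10 stimulated and 17.6 and 20.9% in vehicle stimulated libraries. It took 37.6 and 45.6% in Compound 10 unstimulated and 26.1, 26.6 and 30.3% in vehicle unstimulated libraries. The shares did not overlap between Compound 10 and vehicle in either state. This also held for the downstream Lef1 site and for some sites of Satb1, Bach2 and Foxp1. How often shares do not overlap over all sites was not computed. Shares are given as a description, with no test.

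**Figure D3:**
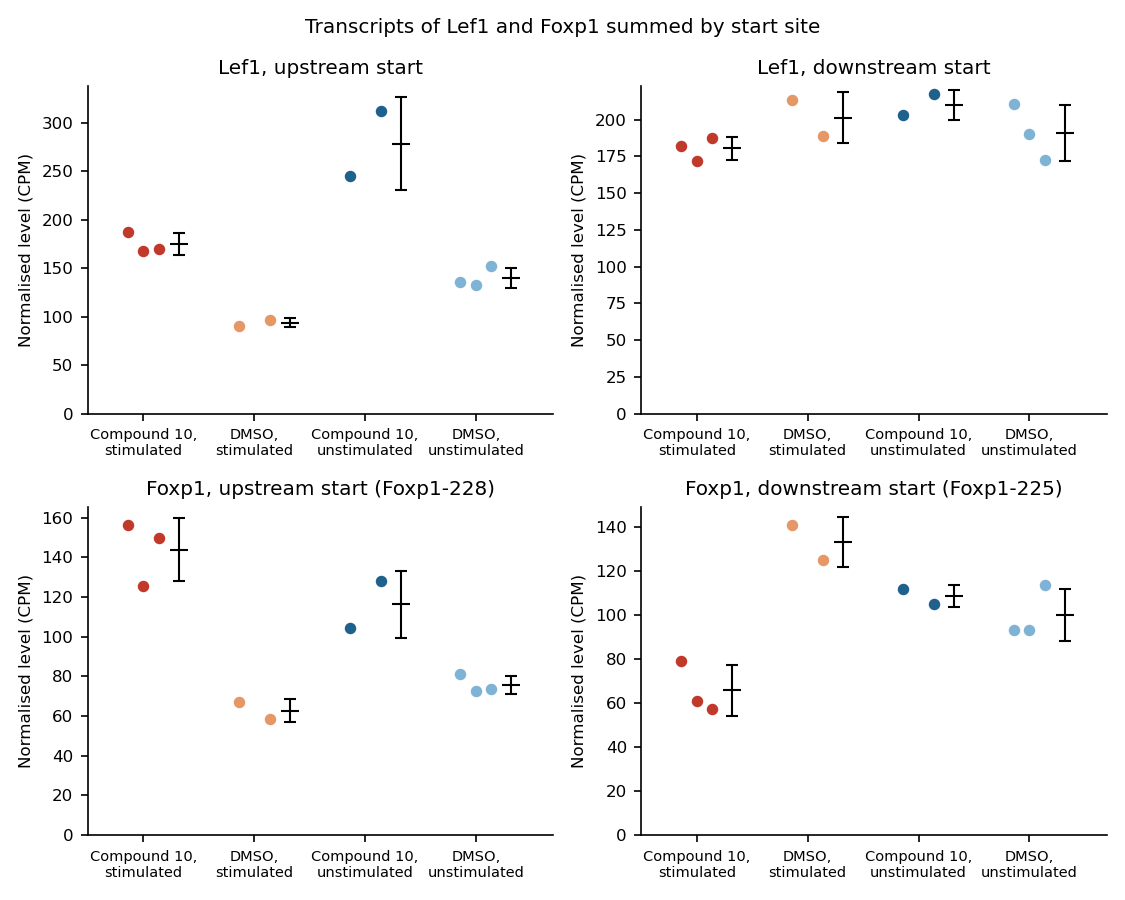
Normalised level (CPM) of Lef1 and Foxp1 transcripts summed by start site; points are libraries, and the black mark beside them is the mean with 1 SD. The upstream Lef1 site and the upstream Foxp1 site are higher with Compound 10 than with vehicle in stimulated cells, and the downstream Foxp1 site is lower.

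At the level of single transcripts, Lef1-201 was higher with Compound 10 in stimulated cells (1.00 ± 0.17 SE, adjusted p = 0.0161) and in unstimulated cells (1.08 ± 0.16 SE, adjusted p = 0.0488), where 4.92% and 0.284% of transcripts passed, and lower with stimulation under vehicle (-0.65 ± 0.17 SE, adjusted p = 0.0343) and with Compound 10 (-0.73 ± 0.16 SE, adjusted p = 0.0336). The call in unstimulated cells was lost in each of the 10 fits that left out 1 library (adjusted p = 0.0617 to 0.257). The others were lost in 3 of 10 such fits for Compound 10 in stimulated cells, 5 of 10 for stimulation under vehicle and 7 of 10 for stimulation with Compound 10 (adjusted p of at most 0.130, 0.197 and 0.234). Lef1-203 did not pass in any of the 4 comparisons. An antisense gene, Gm43352 (131109026 to 131112090), overlaps the first exon of Lef1-201, and the SMART-seq kit does not mark the strand, so that reads of the 2 genes cannot be told apart there. Gm43352 averaged 14.2 ± 3.19 and 9.41 ± 1.40 CPM in Compound 10 and vehicle stimulated cells, and 27.9 ± 12.7 and 12.6 ± 5.90 CPM in Compound 10 and vehicle unstimulated cells. It did not pass in any of the 4 comparisons (adjusted p = 0.344 and 0.0913 for Compound 10 in stimulated and unstimulated cells).

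Satb1 (ENSMUSG00000023927, chromosome 17, 51736187 to 51833290, minus strand) had the largest estimates of the 6 genes for stimulation under vehicle and for Compound 10 in unstimulated cells. It had 521, 552 and 536 CPM in Compound 10 stimulated and 456 and 485 CPM in vehicle stimulated libraries. It had 515 and 506 CPM in Compound 10 unstimulated and 210.0, 308 and 262 CPM in vehicle unstimulated libraries. The 3 vehicle unstimulated libraries were low and all 7 others were high, between 456 and 552 CPM. Stimulation under vehicle raised Satb1 (0.86 ± 0.16 SE, adjusted p = 0.00132), and Compound 10 raised it in unstimulated cells (0.97 ± 0.16 SE, adjusted p = 0.00585). The estimates for stimulation with Compound 10 (0.07 ± 0.16 SE, adjusted p = 0.794) and for Compound 10 in stimulated cells (0.19 ± 0.16 SE, adjusted p = 0.454) did not pass. Both calls rest on the same vehicle unstimulated libraries. Within index runs, Satb1 differed by 1.12 and 0.66 for stimulation under vehicle and by 0.74 and 0.95 for Compound 10 in unstimulated cells. With library totals alone, the rise with stimulation did not pass (0.08, adjusted p = 0.734). The rise with Compound 10 passed when any single library was left out (adjusted p = 0.00753 to 0.0318) but not when only the 2 groups compared were fitted (adjusted p = 0.0607). The test of a different effect of Compound 10 in the 2 states gave -0.78 ± 0.23 (SE, adjusted p = 0.0623) with edgeR, so that 0 of the 6 genes passed this test, where 6.63% of all genes passed. Of the 6, Satb1 alone had an unadjusted p under 0.05 for it, and with DESeq2 it passed (-0.80, adjusted p = 0.0116).

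**Figure D4:**
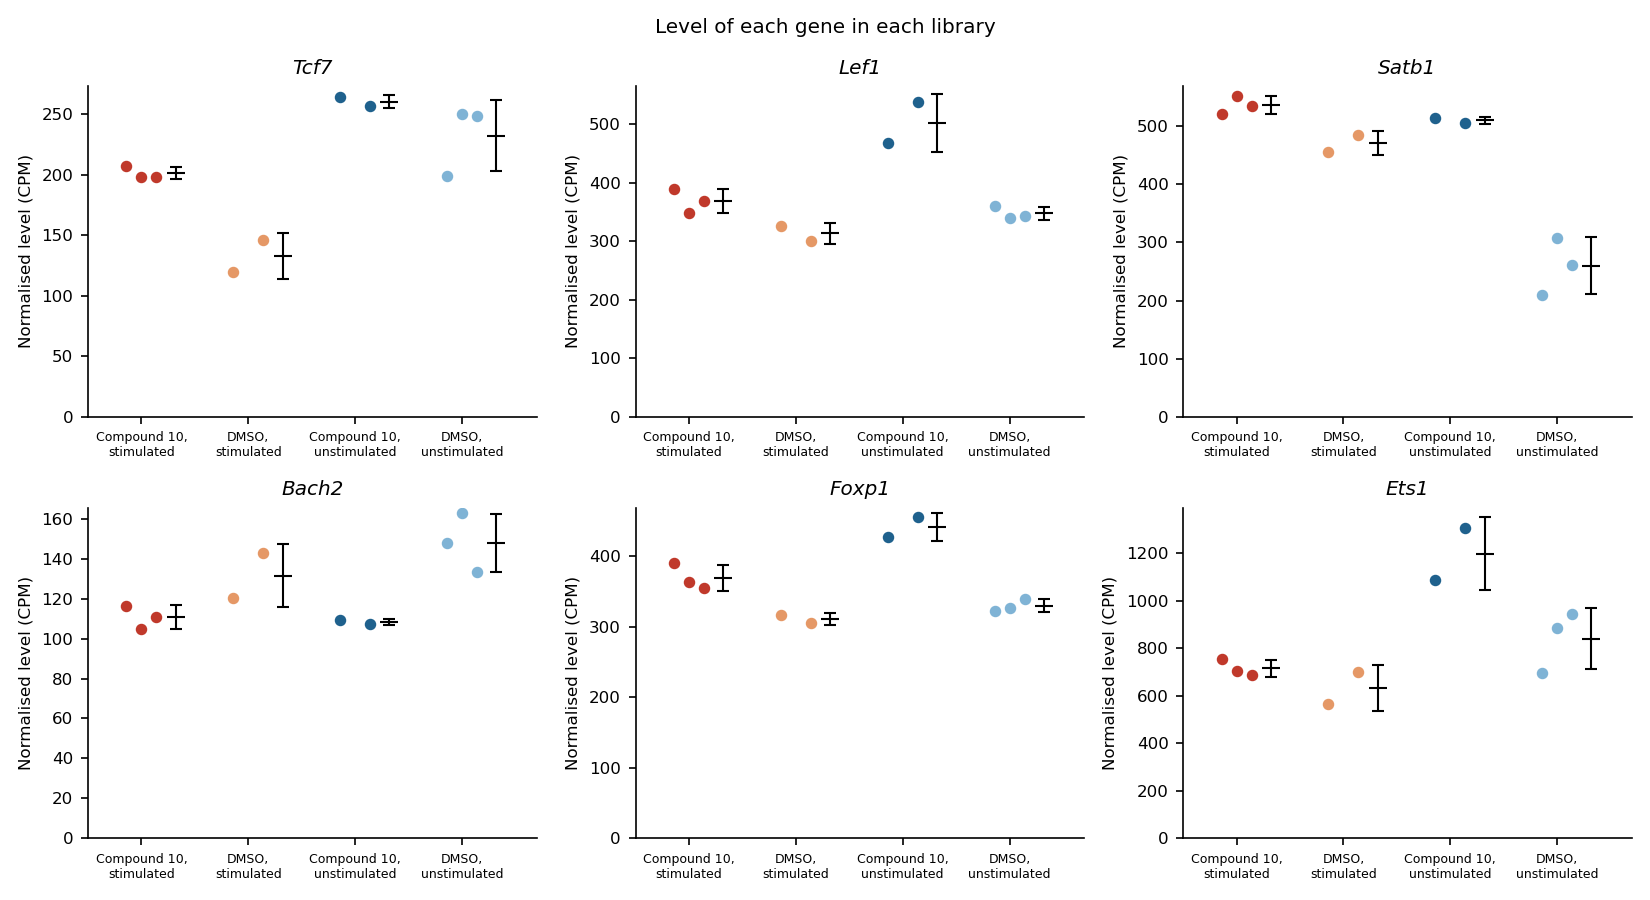
Normalised level (CPM, vertical axis from 0) of each gene in the 10 libraries; points are libraries, and the black mark beside them is the mean with 1 SD. Satb1 is lowest in vehicle unstimulated cells, and Tcf7 is lowest in vehicle stimulated cells.

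The annotation holds 14 Satb1 transcripts, of which 13 were tested. Satb1-203, from the start at 51826566, was the main one, with 48.0% to 61.9% of the TPM. Satb1-204 and Satb1-208, from starts farther upstream, encode the same number of coding bases (2292). Satb1-203 had 258, 269 and 318 CPM in Compound 10 stimulated and 230.2 and 255 CPM in vehicle stimulated libraries. It had 318 and 233 CPM in Compound 10 unstimulated and 119.9, 183 and 129 CPM in vehicle unstimulated libraries. The site of Satb1-203 was higher with stimulation under vehicle (0.79 ± 0.20 SE, adjusted p = 0.0218), and the difference of 1.01 ± 0.20 (SE, adjusted p = 0.0511) with Compound 10 in unstimulated cells did not pass. Tested as a transcript, Satb1-203 did not pass in these comparisons (0.75, adjusted p = 0.0512, and 0.94, adjusted p = 0.145). Of the 13 tested, 5 were higher with stimulation under vehicle, namely Satb1-201, Satb1-205, Satb1-206, Satb1-207 and Satb1-209, where 8.17% of all transcripts were. The sites of Satb1-205 and Satb1-206 were low, with means of 4.02 and 4.47 CPM in vehicle stimulated and 0.79 and 0.60 CPM in vehicle unstimulated libraries. Noncoding Satb1 transcripts took 6.6% to 20.2% of its TPM.

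Gene models inside the introns of Satb1, on the same strand and overlapping none of its exons, were examined for the same comparisons. C230085N15Rik (51757295 to 51761621) had 377, 556 and 562 CPM in Compound 10 stimulated and 360.3 and 340.2 CPM in vehicle stimulated libraries. It had 427 and 389.9 CPM in Compound 10 unstimulated and 156, 267 and 179 CPM in vehicle unstimulated libraries, and the 3 vehicle unstimulated libraries were the lowest of the 10. It was higher with Compound 10 in unstimulated cells (1.03, adjusted p = 0.0232) and with stimulation under vehicle (0.80, adjusted p = 0.0169). E430014B02Rik and 5830444F18Rik, both under 40 CPM, also passed in these comparisons, with 0.93 and 0.87 for Compound 10 in unstimulated cells (adjusted p = 0.0430 and 0.0434) and 0.89 and 0.67 for stimulation under vehicle (adjusted p = 0.0157 and 0.0456). Gm37248 had estimates of 0.82 and 0.56 in the same comparisons, which did not pass (adjusted p = 0.0740 and 0.112). These models were named after their values were seen. Reads of the models and of unspliced Satb1 RNA cannot be told apart.

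**Figure D5:**
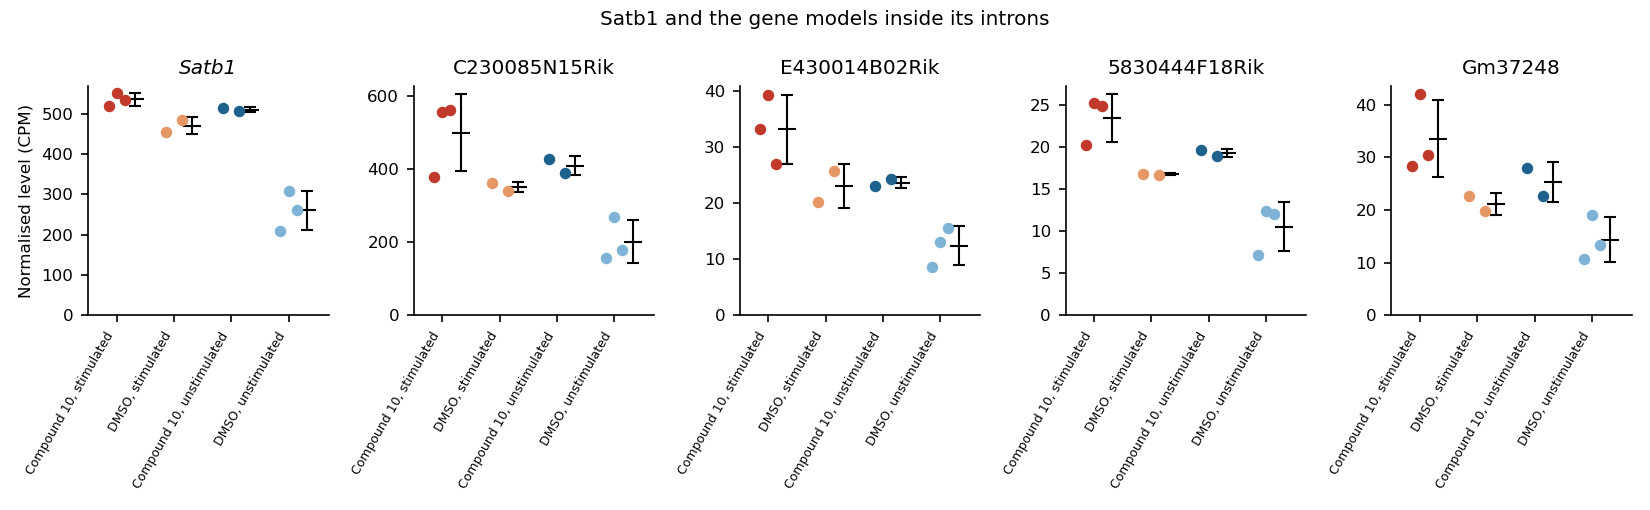
Normalised level (CPM, vertical axis from 0, scales differ) of Satb1 and of 4 gene models inside its introns; points are libraries, and the black mark beside them is the mean with 1 SD. For Satb1 and each of the 4 gene models the vehicle unstimulated libraries are below all others.

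Bach2 (ENSMUSG00000040270, chromosome 4, 32238804 to 32586108, plus strand) was the only one of the 6 genes with estimates below 0 for Compound 10, except that with counts rebuilt from TPM its estimate in stimulated cells was 0.13 (adjusted p = 0.676). It had 117, 105 and 111 CPM in Compound 10 stimulated and 120.3 and 143 CPM in vehicle stimulated libraries. It had 109 and 107 CPM in Compound 10 unstimulated and 148, 163 and 133 CPM in vehicle unstimulated libraries. Every Compound 10 library was below every vehicle library of its state, and stimulated and unstimulated libraries overlapped within each treatment. No comparison passed, with -0.25 ± 0.15 (SE, adjusted p = 0.257) for Compound 10 in stimulated cells and -0.45 ± 0.15 (SE, adjusted p = 0.0873) in unstimulated cells. With DESeq2 the difference in unstimulated cells passed (-0.47, adjusted p = 0.0268). For stimulation the estimates were -0.17 ± 0.15 (SE, adjusted p = 0.398) under vehicle and 0.03 ± 0.15 (SE, adjusted p = 0.899) with Compound 10.

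By start site, Bach2-207 (8493 bases, start at 32417435, 2517 coding bases) was lower with Compound 10 in stimulated cells. It had 20.1, 27.6 and 24.4 CPM in Compound 10 stimulated and 39.5 and 44.4 CPM in vehicle stimulated libraries. It had 32.6 and 30.8 CPM in Compound 10 unstimulated and 56.7, 52.1 and 44.5 CPM in vehicle unstimulated libraries. No Compound 10 library reached a vehicle library of its state. The difference passed in stimulated cells (-0.76 ± 0.18 SE, adjusted p = 0.0301) and did not in unstimulated cells (-0.70 ± 0.18 SE, adjusted p = 0.116). Tested as a transcript, Bach2-207 did not pass in stimulated cells (-0.74, adjusted p = 0.0645). The more upstream Bach2-201 (3462 bases, start at 32238950, 2148 coding bases) did not pass, with -0.13 (adjusted p = 0.702) and -0.47 (adjusted p = 0.239) in the same comparisons. Bach2-205, a noncoding transcript of 336 bases, was listed at 0 in all 5 vehicle libraries and had 1.39, 1.27 and 0.262 CPM in Compound 10 stimulated and 0.584 and 1.05 CPM in Compound 10 unstimulated libraries, which did not pass. It was singled out after its values were seen.

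Foxp1 (ENSMUSG00000030067, chromosome 6, 98925338 to 99522721, minus strand) had 391, 364 and 355 CPM in Compound 10 stimulated and 317 and 305 CPM in vehicle stimulated libraries. It had 427 and 456 CPM in Compound 10 unstimulated and 323, 327 and 340.0 CPM in vehicle unstimulated libraries. Compound 10 libraries were above vehicle libraries in both states, and stimulated below unstimulated libraries with each treatment, without overlap. No comparison of the gene passed: the estimates were 0.25 ± 0.13 (SE, adjusted p = 0.185) and 0.42 ± 0.12 (SE, adjusted p = 0.0609) for Compound 10 in stimulated and unstimulated cells, and -0.08 ± 0.13 (SE, adjusted p = 0.637) and -0.26 ± 0.12 (SE, adjusted p = 0.161) for stimulation under vehicle and with Compound 10. The difference in unstimulated cells passed with DESeq2 (adjusted p = 0.0108), with upper-quartile scaling (adjusted p = 0.0456) and with counts rebuilt from TPM (adjusted p = 0.0380).

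In stimulated cells, sums over start sites of Foxp1 differed in opposite directions with Compound 10. These sums rest on how reads were split between overlapping transcripts, and the part of that split in the differences was not tested. The site of Foxp1-228 at 99163018, from which 6 annotated transcripts start, had 156, 126 and 149.8 CPM in Compound 10 stimulated and 66.9 and 58.5 CPM in vehicle stimulated libraries. It had 104 and 128 CPM in Compound 10 unstimulated and 81.03, 72.5 and 73.8 CPM in vehicle unstimulated libraries. Compound 10 raised it in stimulated cells (1.24 ± 0.16 SE, adjusted p = 0.00269), and this call was kept when any single library was left out (adjusted p = 0.00345 to 0.0386). In unstimulated cells the difference of 0.61 ± 0.15 (SE, adjusted p = 0.104) did not pass.

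The site of Foxp1-225 near 99028258, downstream of that of Foxp1-228 and with 4 annotated transcripts, had 79.1, 60.9 and 57.4 CPM in Compound 10 stimulated and 141 and 125 CPM in vehicle stimulated libraries. It had 112 and 105 CPM in Compound 10 unstimulated and 93.2, 93.4 and 114 CPM in vehicle unstimulated libraries. The 3 Compound 10 stimulated libraries were the lowest of the 10. Compound 10 lowered this site in stimulated cells (-0.98 ± 0.17 SE, adjusted p = 0.00944), and stimulation with Compound 10 lowered it (-0.76 ± 0.17 SE, adjusted p = 0.0214), whereas stimulation under vehicle gave 0.32 ± 0.17 (SE, adjusted p = 0.236). The call for Compound 10 was lost without either vehicle stimulated library (adjusted p = 0.0860 and 0.0510), and that for stimulation with Compound 10 in 4 of 10 fits that left out 1 library (adjusted p of at most 0.0903). Stimulation lowered the site at 99266515, with 4 transcripts, under vehicle (-0.88 ± 0.17 SE, adjusted p = 0.00611) and with Compound 10 (-0.81 ± 0.16 SE, adjusted p = 0.0132). The share of the Foxp1-225 site in the Foxp1 TPM was 15.8, 12.7 and 11.9% in Compound 10 stimulated and 44.2 and 39.03% in vehicle stimulated libraries. Of the 31 annotated Foxp1 transcripts 20 were tested, and their single estimates were uneven: Foxp1-225 had 14.1, 13.03 and 0 CPM in the 3 Compound 10 stimulated libraries. Tested as a transcript, Foxp1-225 did not pass for Compound 10 in stimulated cells (-3.07 ± 1.18 SE, adjusted p = 0.202). From the upstream site, Foxp1-228 (0.95 ± 0.17 SE, adjusted p = 0.0216) and Foxp1-207 (12.4 ± 1.85 SE, adjusted p = 0.0136) passed there.

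Ets1 (ENSMUSG00000032035, chromosome 9, 32636221 to 32757820, plus strand) had 755, 702 and 685 CPM in Compound 10 stimulated and 564 and 701 CPM in vehicle stimulated libraries. It had 1087 and 1305 CPM in Compound 10 unstimulated and 695, 884 and 941 CPM in vehicle unstimulated libraries. The 2 Compound 10 unstimulated libraries were the highest, and vehicle stimulated and vehicle unstimulated libraries overlapped. Stimulation with Compound 10 lowered Ets1 (-0.74 ± 0.17 SE, adjusted p = 0.00699), with -0.63 and -0.93 within index runs. Without Compound 10 unstimulated replicate 2 this did not pass (-0.64, adjusted p = 0.0552). The estimates for stimulation under vehicle (-0.41 ± 0.17 SE, adjusted p = 0.0800), for Compound 10 in stimulated cells (0.17 ± 0.17 SE, adjusted p = 0.515) and in unstimulated cells (0.51 ± 0.17 SE, adjusted p = 0.0878) did not pass. The difference in unstimulated cells passed with DESeq2 (adjusted p = 0.0438), with a replicate block (adjusted p = 0.0445) and with an index-run block (adjusted p = 0.0496). Ets1-201 (5080 bases, start at 32696022) took 96.8% to 99.4% of the Ets1 TPM and fell with stimulation under Compound 10 by the same test among transcripts (-0.83 ± 0.18 SE, adjusted p = 0.0287).

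Over the 6 genes, 32 start sites were tested. In stimulated cells 4 were higher and 2 lower with Compound 10, from Tcf7, Lef1, Foxp1 and Bach2, where 4.79% and 5.54% of all sites were. The Tcf7 site was that of Tcf7-201 (0.63, adjusted p = 0.0350), and the remaining Foxp1 site, at 99435345, gave 1.19 (adjusted p = 0.0294). In unstimulated cells 1 was higher, the upstream Lef1 site, where 0.936% of all sites were. Stimulation under vehicle raised 9 sites and lowered 5, where 11.8% and 11.2% of all sites passed, and with Compound 10 it raised 1 and lowered 4, where 6.56% and 6.41% passed. When each library was left out in turn, the counts with Compound 10 in stimulated cells ranged from 1 to 5 higher and 0 to 2 lower, and those for stimulation under vehicle from 1 to 9 higher and 0 to 5 lower, lowest without either vehicle stimulated library. In unstimulated cells 0 to 1 were higher, and stimulation with Compound 10 raised 0 to 1 and lowered 0 to 5. Of 49 tested transcripts, stimulation raised 6 and lowered 6 under vehicle, where 8.17% and 6.93% of all transcripts passed. With Compound 10 stimulation lowered 3, where 3.39% were lower and 7.21% passed in all. Compound 10 raised 3 transcripts in stimulated and 2 in unstimulated cells, where 2.21% and 0.225% were higher, and in unstimulated cells 0 were higher in each fit that left out 1 library.

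Across the 10 libraries, Lef1 and Foxp1 had the most similar profiles of any 2 of the 6 genes. Their log2 CPM values, centred on each gene's mean, differed by a root mean square of 0.09, and 1 of 7346 other named genes, Il17ra (0.08), was closer to Lef1. For Foxp1 none of the 7346 was closer than Lef1, and the nearest was Vezf1 (0.10). Tcf7 differed from Ets1 by 0.20, and 97 of the 7346 genes were closer to it. Satb1 and Bach2 stood apart from the others, at 0.42 to 0.65 and 0.36 to 0.65. The nearest other genes were Lgals8, Il10rb and Tlk1 for Tcf7 (0.09 to 0.11), Ankrd50, Lncpint and Arhgap31 for Satb1 (0.10 to 0.16) and Dars, Nae1 and Bclaf1 for Bach2 (0.11 to 0.12). They were Ormdl1 and Vezf1, after Il17ra, for Lef1 (0.11 and 0.11), Cdc42se2 and Rab3ip, after Vezf1, for Foxp1 (0.11 and 0.12) and Tmem30a, Tmem123 and Znrf2 for Ets1 (0.15 to 0.16). These values describe the same 10 libraries and their scaling, and carry no test.

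Genes of 8 lists of relatives, partners and targets were set beside the 6 genes, and those named passed an adjusted p of 0.05 in edgeR, with the log2 fold change ± SE in brackets. At most 3 genes are named per list and comparison, so a gene named for 1 comparison may have changed in others too. The shares of all genes that passed were 39%, 26.5%, 23.2% and 8.43% in the 4 comparisons, as above. Among 16 tested relatives and cofactors of TCF-1 and LEF-1, 6 changed with stimulation under vehicle, all higher, with a median log2 fold change of 0.48. Axin2, a target and inhibitor of beta-catenin signalling, rose by 2.57 ± 0.19 under vehicle, and the corepressor Tle4 by 1.44 ± 0.15. With Compound 10, 5 rose and 1 fell with stimulation (median 0.43). In stimulated cells 1 was higher and 3 were lower with Compound 10 than with vehicle (median -0.10), with Axin2 at -1.34 ± 0.18 and Tle4 at -0.81 ± 0.15. In unstimulated cells 2 were higher (median 0.13). Jup, plakoglobin, rose with stimulation under vehicle and with Compound 10 (1.35 ± 0.16 and 1.18 ± 0.17). For stimulation with Compound 10, Ctnnb1, beta-catenin, rose (0.86 ± 0.13) and the corepressor Ctbp2 fell (-3.02 ± 0.56). Under vehicle, Ctnnb1 averaged 454 CPM in stimulated and 231 CPM in unstimulated cells. Ctbp2 was low, with means of 0.520 and 4.12 CPM in stimulated and unstimulated cells with Compound 10. Under vehicle its means were 2.26 and 5.57 CPM. Bcl9l, a beta-catenin coactivator, was higher with Compound 10 in stimulated cells (0.65 ± 0.16) and in unstimulated cells (1.02 ± 0.15), and Jup in unstimulated cells (0.63 ± 0.16).

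For the other ETS genes, 7 rose and 2 fell of 15 tested with stimulation under vehicle (median 0.48), and 7 rose and 2 fell with Compound 10 (median 0.59). In stimulated cells 3 were higher and 1 lower with Compound 10 (median 0.04), and in unstimulated cells 2 were higher (median 0.22). Ets2, the closest paralog of Ets1, rose in all 4 comparisons (1.70 ± 0.14 and 1.54 ± 0.15 for stimulation under vehicle and with Compound 10, 1.04 ± 0.14 and 1.21 ± 0.14 for Compound 10 in stimulated and unstimulated cells), and Etv5 rose with stimulation under vehicle and with Compound 10 (2.05 ± 0.26 and 1.94 ± 0.28). Elk4 rose with stimulation under vehicle (1.22 ± 0.14), and averaged 139 and 74.8 CPM in stimulated and unstimulated cells with Compound 10. Fli1 (1.00 ± 0.21) and Etv6 (1.07 ± 0.25) were higher with Compound 10 in stimulated cells, and Elf1 in unstimulated cells (0.82 ± 0.15), while Elf1 fell with stimulation under Compound 10 (-0.997 ± 0.15). Of 12 other forkhead genes, 4 rose and 3 fell with stimulation under vehicle (median 0.34), 1 rose with Compound 10 (median 0.11), 1 was higher and 1 lower with Compound 10 in stimulated cells (median 0.06) and 2 were higher in unstimulated cells (median -0.10). Under vehicle these included Foxn2 (1.26 ± 0.18), Foxj2 (-1.06 ± 0.22) and Foxk1 (-1.05 ± 0.23). With Compound 10 in stimulated cells Foxn3 was higher (0.48 ± 0.14) and Foxo1, a factor that sustains naive T cell genes, was lower (-0.79 ± 0.22). Foxo4 (0.94 ± 0.23) and Foxn2 (0.75 ± 0.18) were higher in unstimulated cells. Foxp4, a paralog of Foxp1, rose with stimulation under Compound 10 (1.05 ± 0.27).

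Of 13 partners and competitors of Bach2 (small Maf, Nfe2l, Batf, Fos and Jun genes), 11 rose with stimulation under vehicle and 8 rose and 1 fell with Compound 10, with medians of 1.51 and 1.36. Fosl1 (5.39 ± 0.23 and 5.66 ± 0.28), Fosl2 (3.27 ± 0.16 and 3.34 ± 0.18) and Maff (3.602 ± 0.23 and 3.97 ± 0.26) had the smallest adjusted p under vehicle and with Compound 10. In stimulated cells 2 were higher and 2 lower with Compound 10 (median 0.07), and in unstimulated cells 1 was higher (median 0.40). Compound 10 raised Junb in both states (1.20 ± 0.17 and 0.92 ± 0.16) and Maff in stimulated cells (0.69 ± 0.22), and lowered Nfe2l1 there (-1.42 ± 0.38). Of 9 genes of SATB1's relatives and chromatin partners, 4 rose and 1 fell with stimulation under vehicle (median 0.32), and 2 rose and 1 fell with Compound 10 (median 0.31). With Compound 10, 2 were lower in stimulated cells (median -0.36). In unstimulated cells 0 of 9 passed in edgeR and 0 in DESeq2, with 1 at an unadjusted p under 0.05 (median -0.21). With stimulation under vehicle, Chd4 (1.84 ± 0.14), Mta2 (1.04 ± 0.14) and Hdac1 (0.98 ± 0.16), subunits of the NuRD remodelling complex, rose. Chd4 and Mta2 also rose with stimulation under Compound 10 (0.99 ± 0.14 and 0.47 ± 0.14) and were lower with Compound 10 in stimulated cells (-1.18 ± 0.14 and -0.88 ± 0.14), whereas Rad21, a cohesin subunit, fell with stimulation under Compound 10 (-1.07 ± 0.21).

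Of 16 other T lineage factors, 7 rose and 3 fell with stimulation under vehicle (median 0.25), and 3 rose and 2 fell with Compound 10 (median 0.12). With Compound 10, 2 were higher in stimulated cells (median 0.38), and 4 were higher and 1 lower in unstimulated cells (median 0.55), among them Id3 (1.20 ± 0.16), Bcl11b (1.24 ± 0.17) and Gata3 (1.65 ± 0.24). Id3 and Gata3, both known in T cell differentiation, were also higher in stimulated cells (1.48 ± 0.17 and 1.14 ± 0.25). Klf2 and Klf3, factors of quiescent T cells, fell with stimulation under vehicle (-1.82 ± 0.27 and -1.20 ± 0.17) and with Compound 10 (-1.04 ± 0.25 and -1.38 ± 0.16), and Ikzf3 rose under vehicle (3.06 ± 0.38) and Id3 with Compound 10 (1.14 ± 0.16). Of 15 factors of effector differentiation, 11 rose with stimulation under vehicle (median 1.68) and 8 with Compound 10 (median 0.62). Under vehicle and with Compound 10, Myc rose by 6.32 ± 0.18 and 6.03 ± 0.20, Irf4 by 6.92 ± 0.37 and 6.05 ± 0.42, Prdm1 by 3.94 ± 0.34 under vehicle and Bhlhe40 by 4.45 ± 0.43 with Compound 10. Prdm1 also averaged 55.0 and 11.4 CPM in stimulated and unstimulated cells with Compound 10, and Bhlhe40 47.9 and 2.35 CPM under vehicle. In stimulated cells Compound 10 lowered Hif1a (-0.93 ± 0.15) and Zeb2 (-1.43 ± 0.41) and raised 2 others, among them Bhlhe40 (1.60 ± 0.37), and the median was -0.07. In unstimulated cells 5 were higher (median 0.56), among them Rora (0.96 ± 0.14), Nfil3 (1.35 ± 0.22) and Bcl6 (1.69 ± 0.36).

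Of 20 surface and signature genes of naive T cells, 7 were higher and 1 lower with Compound 10 in stimulated cells (median 0.61), and 5 were higher in unstimulated cells (median 0.35). Il7r, the survival receptor of naive cells, was higher in stimulated and unstimulated cells (2.36 ± 0.18 and 2.08 ± 0.16), as were Slamf6 (1.29 ± 0.21 and 1.17 ± 0.20) and Nsg2 (1.29 ± 0.21 and 1.28 ± 0.20). Stimulation raised 5 and lowered 3 under vehicle (median 0.08), and raised 4 and lowered 3 with Compound 10 (median 0.14). S1pr1, the receptor for egress from lymphoid organs, fell under vehicle (-1.97 ± 0.21) and with Compound 10 (-0.89 ± 0.19). Cd27, a costimulatory receptor, rose with stimulation under vehicle (1.63 ± 0.24) and with Compound 10 (1.64 ± 0.26), the cytokine receptor subunit Il6st rose under vehicle (2.17 ± 0.28), and Slamf6 rose with Compound 10 (1.04 ± 0.21).

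Some of these list genes did not pass when 1 library was left out. For stimulation with Compound 10 these were Foxp4, Klf2, Mta2 and Slamf6 (adjusted p of at most 0.278 in edgeR), and with library totals alone the change of Mta2 turned to -0.12. For Compound 10 in stimulated cells they were Bcl9l, Bhlhe40, Etv6, Fli1, Foxn3, Foxo1, Gata3, Maff, Nfe2l1 and Zeb2 (at most 0.255), and in unstimulated cells Bcl6, Elf1, Foxn2, Foxo4, Junb and Jup (at most 0.211). All other list genes named above passed in each of the 10 fits that left out 1 library, in the comparisons where they are named.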

How the data were processed

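RNA from 10 libraries of 4 groups was analysed. The deposited tables, 1 per library, list estimated counts per transcript from kallisto, which splits reads between transcripts they fit, per the file headers and the submitters' processing notes. Those notes also name cutadapt and mm10; versions are not given in the sources used. TPM values stand in the same deposited tables, per the file headers, and were only summed and described. Of 109617 transcripts, 108214 matched GENCODE M21 by identifier. Counts were summed per gene and rounded. Depth was 10694591 to 33486259 counts per library, and intervals are not shown.

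All libraries entered one fit in edgeR 4.0.16 (limma 3.58.1, R 4.3.3) with a coefficient per group, TMM factors (0.731 to 0.850 in stimulated, 1.20 to 1.34 in unstimulated libraries) and filterByExpr. Contrasts were tested with the quasi-likelihood F test and adjusted by Benjamini-Hochberg over all features of a level (14417 genes, 37354 transcripts or 25972 start sites), so every adjusted p in the text, unless DESeq2 1.42.0 is named, is from edgeR. SE is the estimate divided by the root of F. On simulated data the gene test missed most of the smaller changes and some of the larger ones, and the transcript test missed nearly all, so a value that did not pass is not shown to be unchanged. The start-site test was not simulated. A test of transcript shares also gave mostly false calls there, so neither it nor its alternatives were used. Replicates differed by more than sampling noise in all 8 pairs (chi-square per degree of freedom of 13.3 to 107).

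The 6 genes, the lists and the tests were chosen with earlier results of these data known. The rule for names took, per list and contrast, up to 3 genes with the smallest adjusted p under 0.05, per member the 3 genes of most like profile (average log2 CPM of at least 3, prior count 2), and transcripts with at least 10% of a gene's TPM in a group mean. Other transcripts, start sites and overlapping gene models were named after their values were seen. Alternatives were other scaling factors, DESeq2, no filter, counts rebuilt from TPM, only the groups compared, replicate and index-run blocks, protein-coding transcripts only, and leaving out each library.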

Additional observations from a re-analysis of the deposited data

Results flagged for a closer look

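The effect of Compound 10 differed between stimulated and unstimulated cells for 0 of the 6 genes in edgeR (1 at an unadjusted p under 0.05, and 1 in DESeq2, Satb1 in each case). In the lists set beside them 10 genes passed the interaction test, where 6.63% of all genes passed. Below 0 were 2 of 16 TCF/LEF relatives, 1 of 15 ETS, 1 of 13 Bach2-list and 1 of 9 Satb1-list genes. So were 1 of 16 T lineage factors, 1 of 15 effector factors and 1 of 20 naive signature genes. Above 0 were 1 of the ETS and 1 of the naive signature genes, and 0 of 12 forkhead genes passed. Each value is the log2 fold change for Compound 10 in stimulated cells minus that in unstimulated cells, and all are adjusted over 14417 genes.

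Among cofactors of Tcf7 and Lef1, Axin2 differed by -1.62 ± 0.259 (SE, adjusted p = 0.00586) and Tle4 by -0.97 ± 0.213 (SE, adjusted p = 0.0222). Axin2 averaged 44.9 and 114 CPM in stimulated cells with Compound 10 and with vehicle, and 23.2 and 19.1 CPM in unstimulated cells with Compound 10 and with vehicle. Among ETS genes, Elf1 differed by -1.37 ± 0.208 (SE, adjusted p = 0.00428) and Etv6 by 1.31 ± 0.349 (SE, adjusted p = 0.0477). Bach1, the paralog of Bach2, differed by -1.21 ± 0.275 (SE, adjusted p = 0.0258). Chd4, of the partners of Satb1, differed by -0.85 ± 0.193 (SE, adjusted p = 0.0256).

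Ikzf3, of the T lineage factors, differed by -2.17 ± 0.520 (SE, adjusted p = 0.0323). Hif1a, of the effector factors, differed by -1.18 ± 0.217 (SE, adjusted p = 0.0104). Of the naive signature genes, Il6st differed by -2.53 ± 0.395 (SE, adjusted p = 0.00507) and S1pr1 by 1.08 ± 0.280 (SE, adjusted p = 0.0430). Il6st averaged 73.3 and 217 CPM in stimulated cells with Compound 10 and with vehicle, and 93.8 and 48.2 CPM in unstimulated cells with Compound 10 and with vehicle. No group held 4 libraries, so single libraries were not tested for standing apart within a group.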

How the results depend on the processing

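Directions are relative to TMM scaling. With library totals alone, 0 of the 6 genes were higher and 5 lower with stimulation under vehicle, 6029 genes passed with Compound 10, and 6 of the 6 genes were lower there, with Satb1 at -0.52 and Bach2 at -0.56, opposite to their signs under TMM, as was Mta2 at -0.12 and, for the interaction, Foxp1 at 0.016. Genes higher and lower over the whole table then numbered 1202 and 6610 against 2814 and 2803 under TMM for stimulation under vehicle, 810 and 5219 against 1844 and 1972 with Compound 10, 470 and 637 against 670 and 545 for Compound 10 in unstimulated cells, and 527 and 314 against 368 and 588 for the interaction. With upper-quartile factors they were 2090 and 1528 against 1502 and 1848 for Compound 10 in stimulated cells and 494 and 476 for the interaction, 1 of the 6 genes was lower with stimulation under Compound 10, and 2 were higher with Compound 10 in stimulated cells, the second being Foxp1 (0.38, adjusted p = 0.0486).

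DESeq2 passed 1888 genes for Compound 10 in unstimulated cells, with 4 of the 6 higher and 1 lower, and 1671 for the interaction, with 1 of the 6 lower. With no filter on low counts, 2 of the 6 were lower with stimulation under vehicle, 1 was higher with Compound 10 in unstimulated cells, and 1448 genes passed for the interaction, against 617 with counts rebuilt from TPM. Satb1 and Bach2 had -0.0014 and -0.040 for stimulation with Compound 10 with no filter, and Bach2 had 0.13 for Compound 10 in stimulated cells with counts rebuilt from TPM. With only the groups compared, 1 of the 6 was lower with stimulation under Compound 10, and for Compound 10 in unstimulated cells 122 genes passed, 0 of the 6 higher (1215 and 2 in the fit of all groups; Satb1 had adjusted p = 0.0607). A block for index runs passed 2403 genes for Compound 10 in unstimulated cells, 4 of the 6 higher and 1 lower, and 2167 for the interaction, 1 of the 6 lower. Leaving out the third run, chosen after seeing the data, gave 1 of the 6 lower with stimulation under Compound 10, 1 higher with Compound 10 in unstimulated cells, 1666 genes for the interaction, 1 of the 6 lower for it and Bach2 at -0.016 for stimulation with Compound 10. With protein-coding transcripts only, 3 transcripts of the 6 genes were higher with stimulation under vehicle and 1 was lower with Compound 10 in stimulated cells, and Lef1-203 had 0.025 for stimulation under vehicle. The causes were not tested.

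Replicate numbers are shared between groups, but the labels give the number no meaning, and the main fit did not pair libraries by it. Deviations of same-numbered libraries correlated between -0.28 and 0.33. Those of libraries of the same index run correlated between -0.05 and 0.46, and those of different runs between -0.46 and 0.33. The highest value was that of vehicle unstimulated replicate 3 with Compound 10 unstimulated replicate 2. The main fit has no term for index runs either, and the fit with a block for them is given above. With a replicate block, 1504 genes passed for the interaction, 1 of the 6 lower, Satb1 (-0.81, adjusted p = 0.0440), and Ets1 passed for Compound 10 in unstimulated cells (0.54, adjusted p = 0.0445).

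When each library was left out in turn, 3568 to 5769 genes passed for stimulation under vehicle, 2347 to 4370 with Compound 10, 1589 to 3919 for Compound 10 in stimulated cells, 325 to 1335 in unstimulated cells and 191 to 1332 for the interaction. The lowest counts came without vehicle stimulated replicate 1 (3568, 1589 and 191) or Compound 10 unstimulated replicate 2 (2347 and 325). Of the 6 genes, 1 to 2 were lower with stimulation under vehicle, 0 to 2 lower with Compound 10, 0 to 1 higher with Compound 10 in stimulated and 1 to 2 in unstimulated cells, and 0 to 1 lower for the interaction. Of their transcripts, 1 to 7 were higher and 0 to 5 lower with stimulation under vehicle, 0 to 1 higher and 0 to 4 lower with Compound 10, 0 to 3 higher and 0 to 1 lower with Compound 10 in stimulated cells and 0 were higher in unstimulated cells in every fit. Over all settings, 2367 values (single genes, sites and transcripts, and counts of sites) kept their direction and side of the threshold, 213 no longer passed, 23 newly passed and 14 changed sign, and 32 counts of sites moved by more than 1.5 times, all when a library was left out; the sign changes when a library was left out were in Bach2 for stimulation with Compound 10 (-0.0097 to 0.073), Lef1-203 for Compound 10 in unstimulated cells (-0.0096 to 0.22) and its site for stimulation under vehicle (-0.11 to 0.036); 27 of 93 values of list genes did not pass without some library, up to an adjusted p of 0.278, among them, of the interaction values given above, Bach1, Chd4, Etv6, Hif1a, Ikzf3, S1pr1 and Tle4.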

Other observations

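Gene models that overlap the 6 genes, other than those described above, were also measured. Where they overlap, their reads and those of the 6 genes cannot be told apart. This holds for models on the same strand and, because the strand is not marked, also for antisense models. Gm36931, on the strand of Satb1 and overlapping 1 of its exons, averaged 6.08 ± 1.64 CPM in Compound 10 stimulated, 5.99 ± 0.329 CPM in vehicle stimulated, 2.37 ± 0.732 CPM in Compound 10 unstimulated and 1.74 ± 0.462 CPM in vehicle unstimulated libraries (mean ± SD). It was higher with stimulation under vehicle (1.80, adjusted p = 0.00224) and with Compound 10 (1.38, adjusted p = 0.0187). Gm20696, which lies over Foxp1 on the same strand, averaged 19.3 ± 0.706 CPM in Compound 10 stimulated, 15.7 ± 2.08 CPM in vehicle stimulated, 12.3 ± 4.45 CPM in Compound 10 unstimulated and 6.18 ± 1.55 CPM in vehicle unstimulated libraries. It was higher with stimulation under vehicle (1.33, adjusted p = 0.00256) and with Compound 10 in unstimulated cells (0.97, adjusted p = 0.0490), where Foxp1 itself did not pass. Bach2os, antisense to Bach2, averaged 1.77 ± 0.439 CPM in Compound 10 stimulated, 2.04 ± 0.428 CPM in vehicle stimulated, 0.549 ± 0.196 CPM in Compound 10 unstimulated and 1.30 ± 0.605 CPM in vehicle unstimulated libraries. It was higher with stimulation under Compound 10 (1.68, adjusted p = 0.0395), where Bach2 did not pass.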
